A study of Mus musculus with 20 samples.

Results

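Transcript levels of 36 genes of glycolysis and of the transcriptional response to hypoxia were followed in mouse mammary tumour cells. The genes were matched by mouse symbol to the NCBI Gene numbers of the deposited tables, and all 36 were found among the 19311 genes given as RPKM and among the 24454 genes given as CPM. Of the 36, 31 passed the filter on low values in the RPKM libraries and 33 in the CPM libraries. All cells derive from Py2T, a breast cancer line of the MMTV-PyMT transgenic mouse, in which the mammary tumour virus promoter drives the polyoma middle T oncogene. There were 10 groups of 2 libraries each, taken from 2 independent experiments. M1, M2 and M3 are mesenchymal cell lines that are each 1 clone, and Py2T LT cells are Py2T cells kept in 2 ng/ml TGF-beta 1 for over 10 days. M3 cells carried an shRNA against Tet2, an shRNA against Mbd3 or a control shRNA, and each of these was grown with 2 µM CI994 for 72 hours or without it. CI994 inhibits class I histone deacetylases, Tet2 is an enzyme that oxidises 5-methylcytosine in DNA, and Mbd3 belongs to the NuRD complex of chromatin remodellers and deacetylases. TGF-beta is named for Py2T LT and not stated either way for the clones, and the labels name no exposure to low oxygen in any group.

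Glycolysis turns glucose into pyruvate in the cytosol, and lactate dehydrogenase turns pyruvate into lactate when it does not enter the mitochondria. In low oxygen the prolyl hydroxylases encoded by Egln1 and Egln3 lose activity, the alpha subunit of hypoxia-inducible factor 1 (HIF-1, encoded by Hif1a) is no longer degraded, and the factor binds hypoxia response elements in genes of glucose uptake, glycolysis, pH control and angiogenesis. The alpha subunit is set mainly through protein stability, so that its transcript need not follow its activity. Many tumour cells run glycolysis at a high rate in the presence of oxygen as well.

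The core of the hypoxia response element is ACGTG or GCGTG, and promoters of 5 members that the results below turn on are shown with every such core, on either strand, in capitals. They are RefSeq sequences of GRCm38.p6, the build called mm10 in the processing notes, and run 5′ to 3′ along the gene over 250 bases before and 50 bases after the annotated start. Capitals that read CACGT or CACGC are cores on the opposite strand, and cores that overlap run together. Pgk1 lies at chrX:106186850-106187149 on the plus strand, Pdk1 (the first of its annotated starts) at chr2:71872974-71873273 on the plus strand, Bnip3 at chr7:138909457-138909756 on the minus strand, Car9 at chr4:43506776-43507075 on the plus strand and Egln3 at chr12:54203825-54204124 on the minus strand.
Pgk1: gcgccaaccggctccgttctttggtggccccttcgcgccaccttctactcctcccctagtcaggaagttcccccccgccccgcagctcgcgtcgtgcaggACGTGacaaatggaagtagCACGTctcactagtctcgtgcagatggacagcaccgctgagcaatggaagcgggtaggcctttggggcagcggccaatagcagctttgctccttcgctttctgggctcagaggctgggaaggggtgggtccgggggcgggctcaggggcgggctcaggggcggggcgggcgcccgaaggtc
Pdk1: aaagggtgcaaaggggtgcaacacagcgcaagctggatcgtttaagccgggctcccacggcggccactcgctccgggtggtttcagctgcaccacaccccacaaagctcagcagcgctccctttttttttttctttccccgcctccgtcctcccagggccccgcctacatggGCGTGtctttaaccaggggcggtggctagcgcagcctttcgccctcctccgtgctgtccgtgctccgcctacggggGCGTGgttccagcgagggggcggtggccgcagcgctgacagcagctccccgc
Bnip3: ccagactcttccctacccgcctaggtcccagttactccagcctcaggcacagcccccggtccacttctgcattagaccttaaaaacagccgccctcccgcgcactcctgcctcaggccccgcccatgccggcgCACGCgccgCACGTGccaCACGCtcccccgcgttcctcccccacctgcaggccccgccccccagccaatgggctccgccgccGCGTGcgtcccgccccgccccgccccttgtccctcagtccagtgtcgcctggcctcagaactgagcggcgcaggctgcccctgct
Car9: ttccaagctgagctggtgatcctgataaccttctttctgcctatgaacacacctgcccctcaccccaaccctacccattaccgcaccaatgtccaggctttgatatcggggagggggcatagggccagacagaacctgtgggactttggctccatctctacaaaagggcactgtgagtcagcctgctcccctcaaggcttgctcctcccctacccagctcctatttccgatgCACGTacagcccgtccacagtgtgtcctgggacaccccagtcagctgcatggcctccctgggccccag
Egln3: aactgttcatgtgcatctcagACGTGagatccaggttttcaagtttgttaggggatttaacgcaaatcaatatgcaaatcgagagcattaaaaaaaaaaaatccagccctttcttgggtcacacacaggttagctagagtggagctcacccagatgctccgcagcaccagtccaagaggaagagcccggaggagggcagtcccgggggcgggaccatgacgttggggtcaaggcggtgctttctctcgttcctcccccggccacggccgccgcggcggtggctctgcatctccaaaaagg
The table of promoters held 34 of the 36 members, with 52 windows, and Slc2a3 and Ndrg1 had no entry. A core was present in 40 member windows (76.9%), against 61.4% of the 12878 windows of all genes tested in the CPM libraries. ACGTG was in 51.9% of member windows and in 25.1% of the windows of tested genes, and GCGTG in 51.9% and 50% of them. The palindrome CACGTG, which holds ACGTG on both strands, was in 11.5% of member windows and 9.68% of the others. Bnip3 has 5 cores in its window, Pgk1 and Pdk1 have 2 each, and Car9 and Egln3 have 1 each. These matches describe the letters of the windows and were not tested. Of the other members named often, Pfkp (gene 56421) spans chromosome 13 from 6579874 to 6649060, Hk2 (gene 15277) chromosome 6 from 82725025 to 82774454, Ldhb (gene 16832) chromosome 6 from 142490249 to 142507957, Pfkfb3 (gene 170768) chromosome 2 from 11471430 to 11554071 and Ndrg1 (gene 17988) chromosome 15 from 66929318 to 66969641, in the same build.

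The 12 CPM libraries held 16086082 to 24977595 reads, recovered from the values, so that a count of 0 allows up to 0.120 to 0.186 CPM, which covers counting error only. The absolute depth of the 8 RPKM libraries is unknown. The library labelled shControl replicate 1 (untreated) stood apart. From the lowest to the highest decile of genes by GC content, its log2 level relative to replicate 2 changed by -1.75, while this change lay between -0.39 and -0.01 in the other 5 CPM pairs. Of the 33 tested members, 26 were higher in shControl replicate 2 and 17 were over 1.5 times higher there, with a median ratio of 1.75. The tested members had a median GC content of 54.4%, against 50.5% for all tested genes. Counts of members that passed against untreated shControl, and the differences of most members named there, are therefore given with this library and without it. Markers of other cell types were at or near 0 in all 20 libraries (Adgre1, Ptprc, Kdr and Adipoq among them), apart from the lysosomal and macrophage gene Cd68 and, in Py2T LT, the endothelial cadherin gene Cdh5, at 1.401 and 0.911 RPKM. The summed level of 3 endothelial markers did not exceed 0.808 CPM in any of the 12 CPM libraries.

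Levels per transcript length can be compared between genes in the RPKM libraries. Among the members, Pkm (pyruvate kinase) was the highest in the Py2T LT libraries, at 390 and 373 RPKM. Ldha (lactate dehydrogenase A) had 256 and 260 RPKM there, and Aldoa (aldolase A) 164 and 162 RPKM. Slc2a3 (a neuronal glucose transporter) and Slc16a3 (a lactate exporter) did not exceed 0.0903 RPKM in any library, and Slc16a3 had 0 reads in all 12 CPM libraries. Gapdh had only 0.360 to 1.13 RPKM and 2.36 to 5.23 CPM. Gapdh shares stretches of at least 200 bases with at least 95% identity with 78 other annotated genes, and 12 of the 36 members share such a stretch with at least 1. Eno1 (enolase 1) and its copy Eno1b are one such pair, and both were low in the library labelled shControl replicate 1, at 31.7 and 44.9 CPM, against 362 and 458 CPM in replicate 2. How reads with several matches were counted is not given in the sources used here, so the values of these 12 members (Gpi1, Pfkp, Tpi1, Gapdh, Pgk1, Pgam1, Eno1, Pkm, Ldha, Ldhb, Bnip3 and Ndrg1) are uncertain. For Pfkp the gene that shares the stretch is Pitrm1, which overlaps Pfkp. That stretch may be the same genomic sequence, and the uncertainty of Pfkp may then come from the overlap. Pgam1 shows how far the 2 tables differ, at 0.150 to 0.473 RPKM in one and 113 to 264 CPM in the other. Of the genes named below, Pfkm, Pfkp, Tpi1, Car9 and Ankrd37 overlap another protein-coding gene, and whether the counting used strand is likewise not given.

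The clones were compared with TGF-beta-treated Py2T LT cells. Of 4 tested genes of the triose phase of glycolysis 3 were higher in the mean of the clones, and of 4 tested genes of pyruvate and lactate 3 were higher and 1 was lower. Of 10 genes of the hexose phase 5 were higher and 4 lower, and of 9 other hypoxia targets 5 were higher and 4 lower. Between the mean of the 3 clones and Py2T LT, 28 of the 31 tested members passed the test at an adjusted p under 0.05 (limma, Benjamini-Hochberg over all genes), 16 higher and 12 lower in the clones. In this comparison 65.1% of all tested genes passed (32.1% higher and 33.0% lower). In cell cultures such as these, fewer cells of a kind and less transcript per cell cannot be told apart. The median log2 difference was 0.29 for the members and -0.01 for all tested genes. With each clone taken alone, 25 members passed in M1 (15 higher and 10 lower, with 61.0% of all genes passing, 30.5% higher and 30.5% lower), 26 in M2 (18 and 8, with 57.5%, 28.1% higher and 29.4% lower) and 23 in M3 (13 and 10, with 59.6%, 29.2% higher and 30.4% lower).

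**Figure D1:**
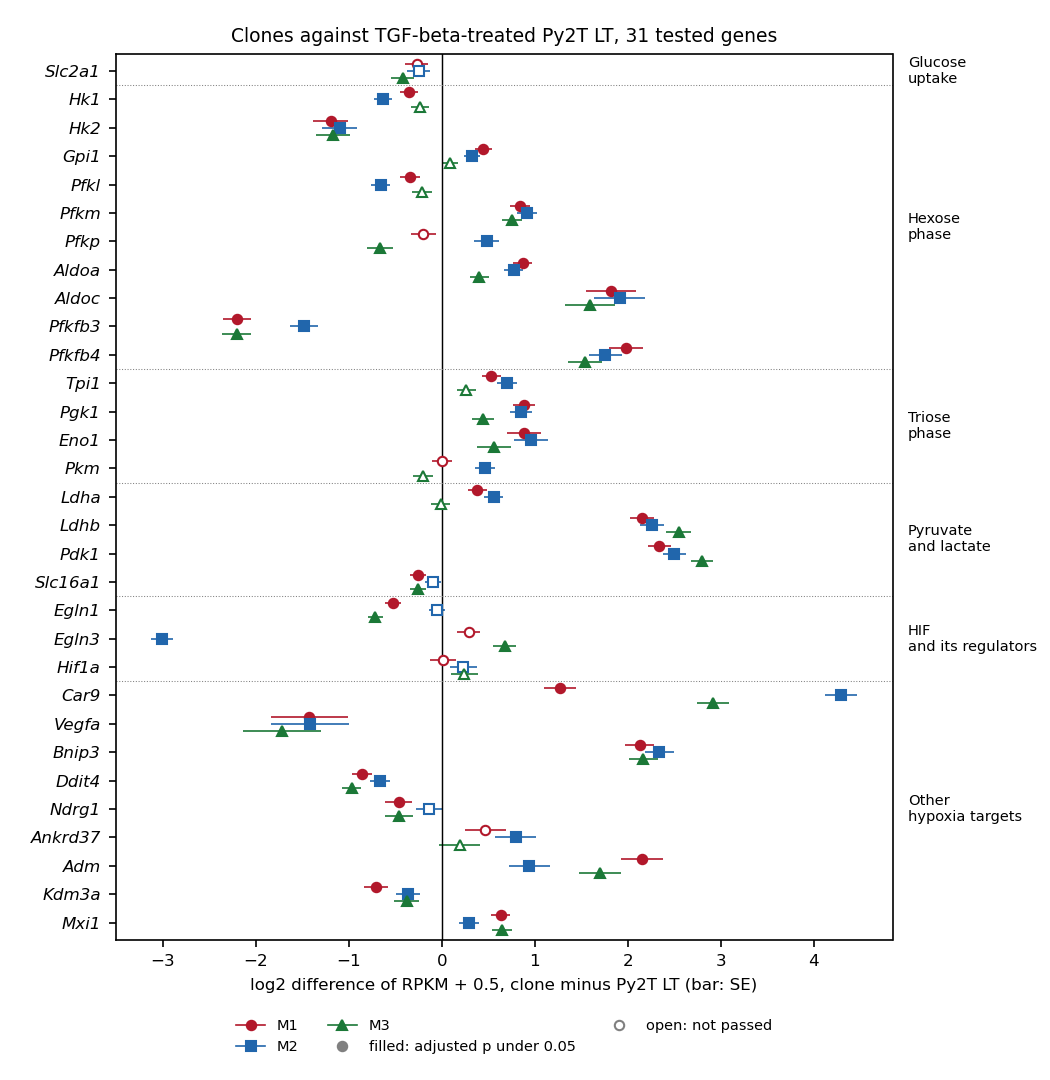
Log2 differences of RPKM + 0.5 between each clone and Py2T LT for the 31 tested members, grouped by role, with standard errors as bars. Filled symbols passed an adjusted p under 0.05. Pdk1, Ldhb, Bnip3 and Car9 lie far to the right in all 3 clones, Pfkfb3 and Hk2 to the left, and Egln3 lies at -3.01 in M2 but at 0.29 in M1 and 0.68 in M3.

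In the hexose phase of glycolysis, Pfkm and Pfkl moved in opposite directions in the mean of the clones, as did Pfkfb3 and Pfkfb4. The hexokinases fell together and the aldolases rose together in that mean. Hk2, the inducible hexokinase that traps glucose in the cell, had 13.7 and 15.7 RPKM in M2, 11.5 and 16.8 RPKM in M1 and 13.1 and 14.8 RPKM in M3, against 34.7 and 28.6 RPKM in Py2T LT. All 6 clone libraries lay below both Py2T LT libraries, and the mean log2 difference was -1.16 (SE 0.15, adjusted p = 0.000175). Hk1, the hexokinase found in most tissues, was lower too in the mean of the clones, by -0.41 on the log2 scale, but did not pass in M3 alone. Of the phosphofructokinase genes, which encode the committed step, Pfkm (muscle type) was higher by 0.84 and Pfkl (liver type) was lower by -0.41. Pfkl did not pass in M3 alone. Pfkfb3 and Pfkfb4 make or break down fructose 2,6-bisphosphate, the activator of phosphofructokinase. Pfkfb3 had 0.936 and 1.19 RPKM in M2, 0.410 and 0.496 RPKM in M1 and 0.510 and 0.379 RPKM in M3, against 4.07 and 3.53 RPKM in Py2T LT. The mean log2 difference of Pfkfb3 was -1.97 (SE 0.13, adjusted p = 2.06e-06), and that of Pfkfb4 was 1.76 (SE 0.15, adjusted p = 1.16e-05), with no overlap between clone and Py2T LT libraries for either. Aldoa rose by 0.68 and Aldoc (aldolase C) by 1.78 on the log2 scale. Slc2a1, the only glucose transporter among the tested members, had 56.6 to 69.9 RPKM over the 6 clone libraries and 87.0 and 68.7 RPKM in Py2T LT, so the ranges overlapped. Its log2 difference of -0.31 passed (adjusted p = 0.0218), but without Py2T LT replicate 1 it was -0.145 and did not (adjusted p = 0.311).

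In the triose phase, Tpi1 (triose phosphate isomerase), Pgk1 (phosphoglycerate kinase 1, the first step that makes ATP) and Eno1 were higher in the mean of the clones by 0.50, 0.73 and 0.80 on the log2 scale. Tpi1 did not pass in M3 alone. Pgk1 had 22.9 and 27.1 RPKM in M2, 26.5 and 25.2 RPKM in M1 and 17.4 and 20.0 RPKM in M3, against 13.6 and 13.1 RPKM in Py2T LT, with no overlap. Pkm did not pass in the mean of the clones (log2 difference 0.09, SE 0.09, adjusted p = 0.406), with 548 and 524 RPKM in M2, 427 and 360 RPKM in M1 and 319 and 356 RPKM in M3, against 390 and 373 RPKM in Py2T LT.

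Pyruvate and lactate genes gave some of the largest differences. Ldhb, the lactate dehydrogenase subunit that favours turning lactate into pyruvate, had 6.43 and 6.46 RPKM in M2, 5.65 and 6.45 RPKM in M1 and 7.97 in both M3 libraries, against 0.848 and 1.03 RPKM in Py2T LT (log2 difference of the mean 2.32, SE 0.11, adjusted p = 2.6e-07). Pdk1, the kinase that inactivates pyruvate dehydrogenase and so keeps pyruvate out of the citric acid cycle, had 5.93 and 5.95 RPKM in M2, 5.42 and 5.21 RPKM in M1 and 7.89 and 6.96 RPKM in M3, against 0.606 and 0.647 RPKM in Py2T LT (2.55, SE 0.10, adjusted p = 9.95e-08). For both genes every clone library lay several times above either Py2T LT library. Ldha, the subunit that favours lactate, rose by 0.38 in M1 and 0.56 in M2 and had a log2 difference of -0.01 in M3. Slc16a1, a lactate and pyruvate transporter, was lower by -0.20 on the log2 scale.

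**Figure D2:**
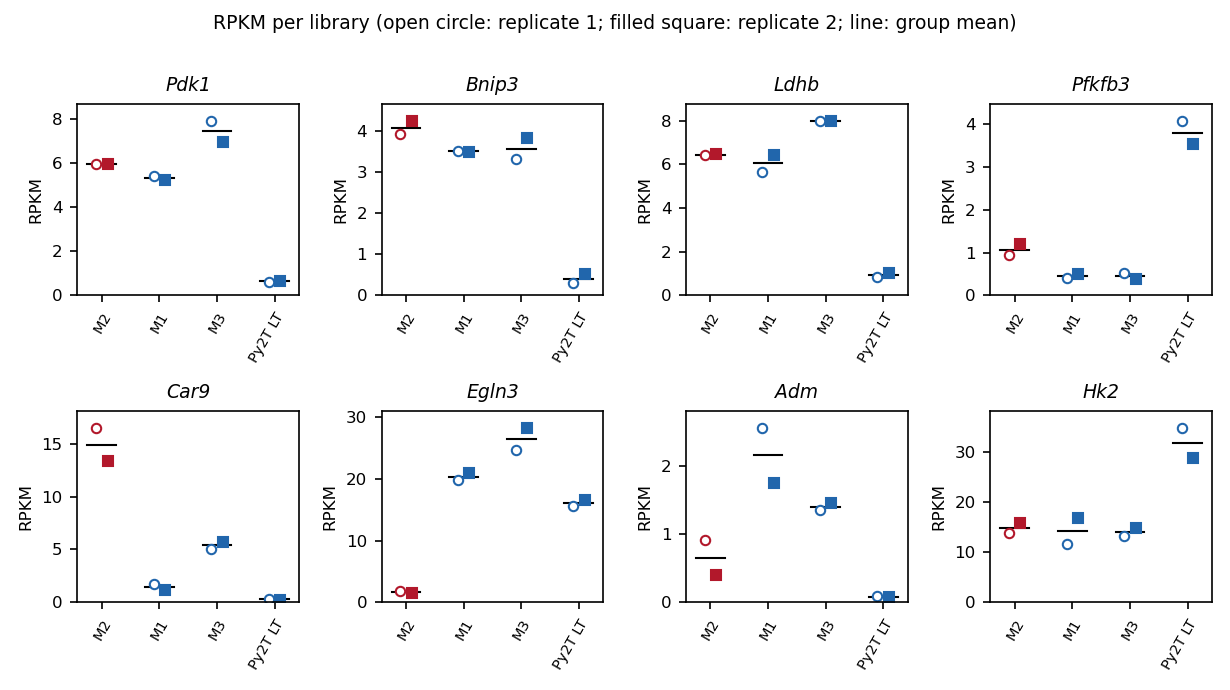
RPKM of 8 members in each of the 8 libraries of M2, M1, M3 and Py2T LT, with the group mean as a line and M2 in red. Pdk1, Bnip3 and Ldhb were low in Py2T LT and high in all clones, Pfkfb3 and Hk2 the reverse, while Car9 was highest and Egln3 lowest in M2.

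Among the HIF regulators, Hif1a passed in none of the comparisons, with 35.96 to 50.8 RPKM over the 6 clone libraries and 36.8 and 41.2 RPKM in Py2T LT. Egln1 was lower in M1 and M3, by -0.53 and -0.71 on the log2 scale, and had a difference of -0.05 in M2 (adjusted p = 0.619). Egln3 had 1.75 and 1.45 RPKM in M2, 19.7 and 21.0 RPKM in M1 and 24.7 and 28.3 RPKM in M3, against 15.6 and 16.6 RPKM in Py2T LT. The mean over clones (-0.68) thus described none of them, with M2 far below Py2T LT and M3 above it.

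Of the other hypoxia targets, Bnip3, a mitochondrial protein of mitophagy and cell death, had 3.32 to 4.24 RPKM over the 6 clone libraries, against 0.298 and 0.509 RPKM in Py2T LT (log2 difference 2.21, SE 0.13, adjusted p = 9.89e-07). Car9, the membrane carbonic anhydrase that buffers the pH of hypoxic tumour cells, had 16.5 and 13.3 RPKM in M2, 1.67 and 1.17 RPKM in M1 and 5.05 and 5.73 RPKM in M3, against 0.327 and 0.228 RPKM in Py2T LT. The 4 groups did not overlap for Car9, and the differences from Py2T LT were 4.29 in M2, 1.27 in M1 and 2.91 in M3. Adm (the vasodilator peptide adrenomedullin) had 0.395 to 2.55 RPKM in clone libraries, against 0.0843 and 0.0809 RPKM in Py2T LT. In the other direction, Vegfa, the endothelial growth factor, had 62.5 and 69.3 RPKM in M2, 50.9 and 86.4 RPKM in M1 and 36.1 and 78.6 RPKM in M3, against 182 and 166 RPKM in Py2T LT. Its libraries did not overlap, but the replicates of M1 and M3 lay far apart, and its log2 difference of -1.52 (SE 0.34, adjusted p = 0.0101) missed the threshold without either Py2T LT library (adjusted p up to 0.0674). Ddit4, an inhibitor of mTORC1 signalling, fell to 53.7 to 74.3 RPKM in clone libraries, against 112 and 117 RPKM in Py2T LT.

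Of the 28 calls for the mean of the clones, 20 were kept whichever single library was left out. The other 8 (Slc2a1, Gpi1, Ldha, Slc16a1, Vegfa, Ndrg1, Ankrd37 and Kdm3a) were lost without at least 1 library of Py2T LT, M2 or M3, with adjusted p up to 0.413. Each of the 8 had the same sign in all those fits. For M1, M2 and M3 alone, 19, 19 and 15 of the calls were kept. The summed level of 6 epithelial markers was 1463 to 1622 RPKM in M2, 1324 to 1935 in M1, 1309 to 1331 in M3 and 1192 to 1242 in Py2T LT, and that of 6 mesenchymal markers was 1396 to 1435 in M2, 1034 to 1275 in M1, 1551 to 1570 in M3 and 2898 to 3005 in Py2T LT. All 12 were above 0 in every group. The sums rest mostly on Krt8 and Krt18 and on Vim and Fn1, and single markers differed. Cdh2, Prrx1 and Twist1 were higher and Vim, Fn1 and Zeb1 lower in every clone library than in Py2T LT. Cdh2 had 36.4 to 54.9 RPKM in clone libraries, against 1.74 and 1.94 RPKM in Py2T LT. Of the epithelial markers, 2 passed higher and 2 lower in the mean of the clones, with Cldn4 among the lower. The summed endothelial markers, nearly all of it Cdh5 in Py2T LT, were 0.0697 to 0.147 RPKM in M2, 0.0526 to 0.141 in M1, 0.0495 to 0.1001 in M3 and 0.965 to 1.44 in Py2T LT, and Kdr was at 0 in all clone libraries. The part of these markers in the differences was not tested. Each clone is a single line, and TGF-beta is named for Py2T LT only. A property of the clone, the TGF-beta treatment of Py2T LT and a difference in mesenchymal state therefore cannot be told apart here.

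The clones were also compared with each other. Against M3, 14 members passed in M2 (9 higher and 5 lower), where 20.2% of all genes did (10.1% higher and 10.2% lower), and against M1, 8 passed (5 and 3), where 23.0% did (10.6% and 12.4%). Between M1 and M3, 2 members passed, Aldoa higher and Car9 lower in M1, where 4.84% of genes did (2.00% higher and 2.84% lower). The passing members were 45.2%, 25.8% and 6.45% of the 31 tested in these 3 comparisons, and in the last 2 this lies near the share of all genes. Egln3 was lower in M2 by -3.30 against M1 and by -3.69 against M3 (SE 0.12 for each, adjusted p = 2.43e-06 and 1.53e-06). Car9 was higher in M2 by 3.02 against M1 and 1.38 against M3 (SE 0.17 for each). Egln1 was higher by 0.48 and 0.66, and Pfkp (platelet type phosphofructokinase), at 6.44 and 6.28 RPKM in M2, 4.21 and 3.49 in M1 and 2.43 and 2.76 in M3, by 0.68 and 1.15. Pkm, with 0.47 and 0.67, and Pfkfb3, with 0.72 against either clone, were also higher in M2, and Adm and Mxi1 (a Myc antagonist) were lower. These counts depend on single libraries and on the fit, with 4 members between M2 and M1 and 1 between M1 and M3 in fits of the compared groups alone. Without M2 replicate 1 or M2 replicate 2, 4 and 3 members passed against M1 and 6 and 5 against M3, and without M3 replicate 1 or M3 replicate 2, 7 and 6 passed against M3. Calls kept without any 1 library were those of Car9, Egln3 and Adm against M1, those of Pfkp, Car9, Egln1 and Egln3 against M3, and that of Car9 between M1 and M3. Without M1 replicate 2, 12 members passed between M1 and M3, and 1 without any other single library of that pair of clones. Aldoa was lost there without M1 replicate 1 or either M3 library (adjusted p up to 0.242).

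In the M3 shRNA lines, the targeted genes were examined first. Tet2 had 8.41 and 7.97 CPM in shTet2 cells, against 15.1 and 13.8 CPM in the libraries labelled shControl. Mbd3 had 22.1 and 27.7 CPM in shMbd3 cells, against 5.40 and 66.5 CPM in the libraries labelled shControl, so that the library labelled shControl replicate 1 went against its label for this gene. The markers Cdh1 and Vim had 16.3 and 1461 CPM in that library and 25.7 and 1525 CPM in shControl replicate 2. In shMbd3 cells they had 170 to 202 and 396 to 409 CPM. The cause of the low Mbd3 value was not tested. With CI994, Tet2 had 6.30 and 7.42 CPM in shTet2 cells and Mbd3 16.6 and 21.9 CPM in shMbd3 cells, against 8.13 and 11.4 CPM and 53.6 and 67.7 CPM in shControl cells. The contrast of shTet2 with shMbd3 uses no shControl library and is given first.

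Between shTet2 and shMbd3 cells without CI994, Pgk1, Pfkp, Pdk1, Car9, Bnip3 and Ndrg1 were higher in shTet2 cells and Egln3 was lower. In all, 10 of 33 tested members passed, 8 higher and 2 lower in shTet2 cells, and 19.1% of all tested genes passed (9.49% higher and 9.60% lower). With the GC trend removed 19 members passed, and 23 in a fit of these 2 groups alone. The share of all genes is not given for such alternative fits here or elsewhere, except without the library labelled shControl replicate 1. Pgk1 had 1282 and 1275 CPM in shTet2 cells, against 632 and 631 CPM in shMbd3 cells (log2 difference 1.11, SE 0.09, adjusted p = 0.000104). Pfkp had 85.4 and 79.3 CPM in shTet2 cells and 27.4 and 25.3 CPM in shMbd3 cells (1.72, SE 0.15, adjusted p = 0.000125). Pdk1 had 89.4 and 83.1 CPM, against 28.1 and 31.0 CPM in shMbd3 cells (1.62, SE 0.14, adjusted p = 0.000122). Replicates of these 3 genes lay close together and the groups far apart. Bnip3 had 111 and 100 CPM in shTet2 cells, against 16.2 and 20.3 CPM in shMbd3 cells (2.60, SE 0.17, adjusted p = 4.11e-05). Car9 had 50.2 and 49.96 CPM in shTet2 cells, against 5.55 and 11.7 CPM in shMbd3 cells (2.64, SE 0.30, adjusted p = 0.00048). Egln3 had 38.8 and 33.6 CPM in shTet2 cells, against 110 and 115 CPM in shMbd3 cells (-1.54, SE 0.15, adjusted p = 0.000231). Again no library of one group reached the other. Ndrg1, a gene of differentiation and stress induced by hypoxia, had 336 and 359 CPM in shTet2 cells and 130 and 147 CPM in shMbd3 cells (1.41, SE 0.14). Ldha and Kdm3a (a histone H3 lysine 9 demethylase) were higher by 0.70 and 0.67, and Pfkm was lower by -0.96 on the log2 scale. Those last 3 were lost without at least 1 library of the 2 groups (adjusted p up to 0.167), and the other 7 were kept in each case. Hif1a had 221 and 226 CPM in shTet2 cells and 227 and 235 CPM in shMbd3 cells (log2 difference 0.04). The summed epithelial markers were 3603 to 4076 CPM in shTet2 cells and 2637 to 2727 CPM in shMbd3 cells, and the mesenchymal ones 2949 to 3063 and 2815 to 3117 CPM, all 12 above 0 in both groups, and their part in these differences was not tested.

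**Figure D3:**
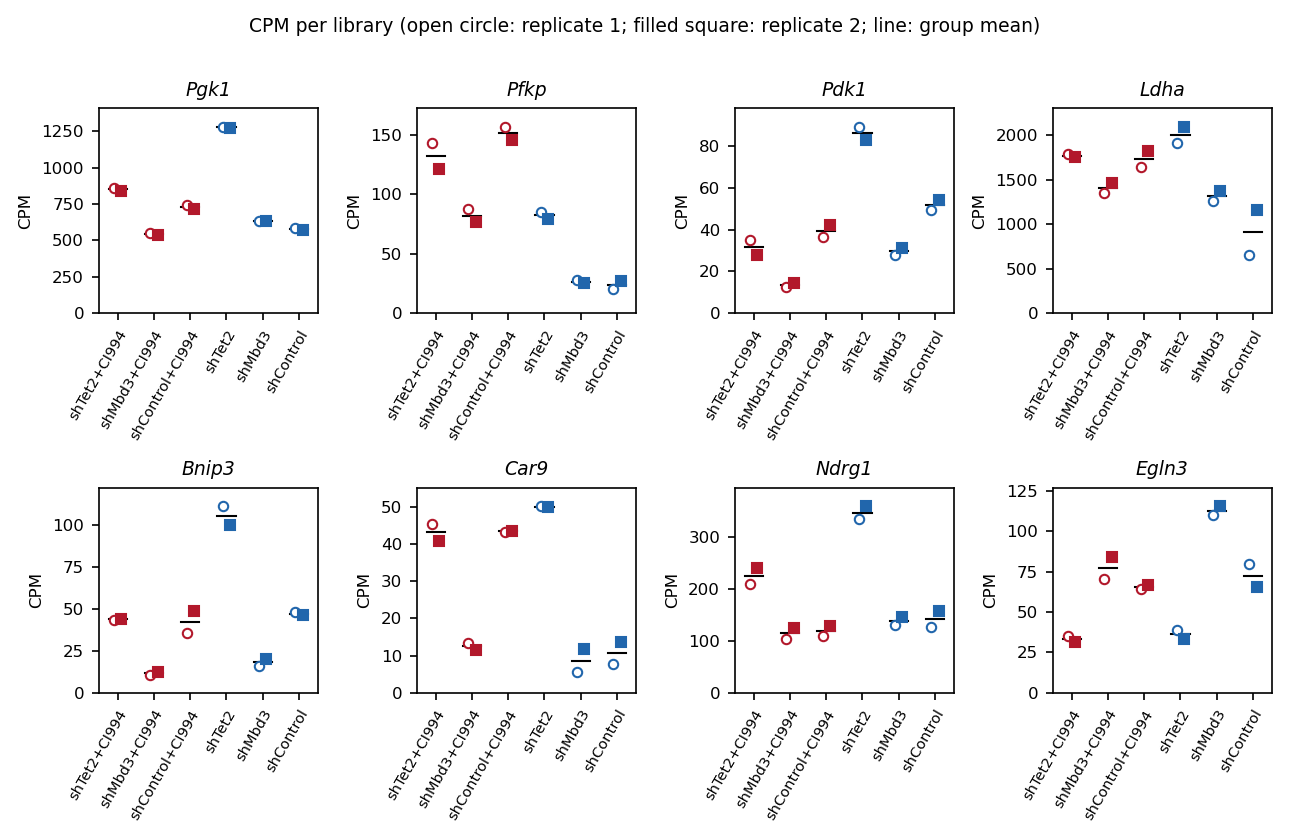
CPM of 8 members in each of the 12 libraries of the M3 shRNA lines, CI994-treated groups in red and untreated groups in blue, with the group mean as a line. In untreated cells Pgk1, Pdk1, Bnip3 and Ndrg1 were highest in shTet2 cells, and with CI994 the shTet2 values of these 4 genes were lower.

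Against the untreated control shRNA, 6 of 10 tested members of the hexose phase were higher in shTet2 cells, as were 3 of 6 of the triose phase, 3 of 4 of pyruvate and lactate and 6 of 9 other hypoxia targets. There were 20 members that passed, 19 higher and 1 lower, where 23.2% of all tested genes passed (10.5% higher and 12.7% lower). The median log2 difference of the tested members was 0.92, and that of all tested genes 0.02. Without the library labelled shControl replicate 1, 26 members passed (23 higher and 3 lower, with 32.8% of all genes passing, 16.4% and 16.3%), among them all 20, with a median of 0.57. Of the 3 lower there, Pfkm (-1.06) and Ldhb (-0.93) had not passed with all libraries. Higher members with close shControl replicates can be read most directly. Pgk1 had 1282 and 1275 CPM in shTet2 cells, against 584 and 570 CPM in shControl cells (log2 difference 1.18, SE 0.09, adjusted p = 4.69e-05). Bnip3 had 111 and 100 CPM, against 48.2 and 46.0 CPM in shControl cells (1.18, SE 0.17), and Pdk1 had 89.4 and 83.1 CPM, against 49.4 and 54.1 CPM in shControl cells (0.76, SE 0.14). Pfkp had 85.4 and 79.3 CPM, against 20.0 and 27.2 CPM in shControl cells (1.83, SE 0.15). None of these groups overlapped, and the differences of these 4 genes without the library labelled shControl replicate 1 were 1.26, 1.28, 0.76 and 1.67. Car9, at 7.87 and 13.8 CPM in shControl cells, and Ddit4, with 156 and 161 CPM in shTet2 cells against 29.8 and 52.7 CPM in shControl cells, rose by 2.24 and 2.01 on the log2 scale, and by 1.92 and 1.67 without that library. Egln3 was lower, with 38.8 and 33.6 CPM in shTet2 cells against 79.6 and 65.6 CPM in shControl cells (-0.96, and -0.76 without that library).

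Other glycolytic members had wide shControl pairs. Slc2a1 had 173 and 199 CPM in shTet2 cells, against 45.0 and 138 CPM in shControl cells. Its log2 difference was 1.26 (adjusted p = 0.0387) with both control libraries and 0.52 (adjusted p = 0.0175) without replicate 1. Aldoa had 1150 and 1283 CPM in shTet2 cells, against 264 and 778 CPM in shControl cells, with differences of 1.45 and 0.73. For both genes the shTet2 libraries lay above both control libraries, and the size of the difference rests on the first of the control libraries. The same holds for Gpi1 (glucose phosphate isomerase), with 1.20 and 0.57, for Pfkl, with 1.73 and 0.82, for Tpi1, with 1.22 and 0.75, and for Pfkfb4, with 1.66 and 1.08. Ldha had 1908 and 2092 CPM in shTet2 cells, against 657 and 1154 CPM in shControl cells (1.23, and 0.88 without replicate 1). Eno1 had a difference of 2.07 with an SE of 0.80 and did not pass (adjusted p = 0.0923), and without the library labelled shControl replicate 1 it was 0.38. Of the 20 calls, 11 were kept whichever single library was left out. Slc2a1, Gpi1, Pfkl, Aldoa, Pgam1, Slc16a1, Ankrd37 and Adm were lost without either shTet2 library and Tpi1 without shTet2 replicate 2 (adjusted p up to 0.184), so that 12 and 11 members passed without shTet2 replicate 1 and replicate 2. In a fit of the shTet2 and shControl libraries alone, 6 members passed. The summed epithelial markers were 3603 to 4076 CPM in shTet2 cells, against 975 to 2493 CPM in shControl cells, and the mesenchymal ones 2949 to 3063 CPM, against 4392 to 6122 CPM in shControl cells, with all 12 above 0. Their part in the differences of the members was not tested.

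**Figure D4:**
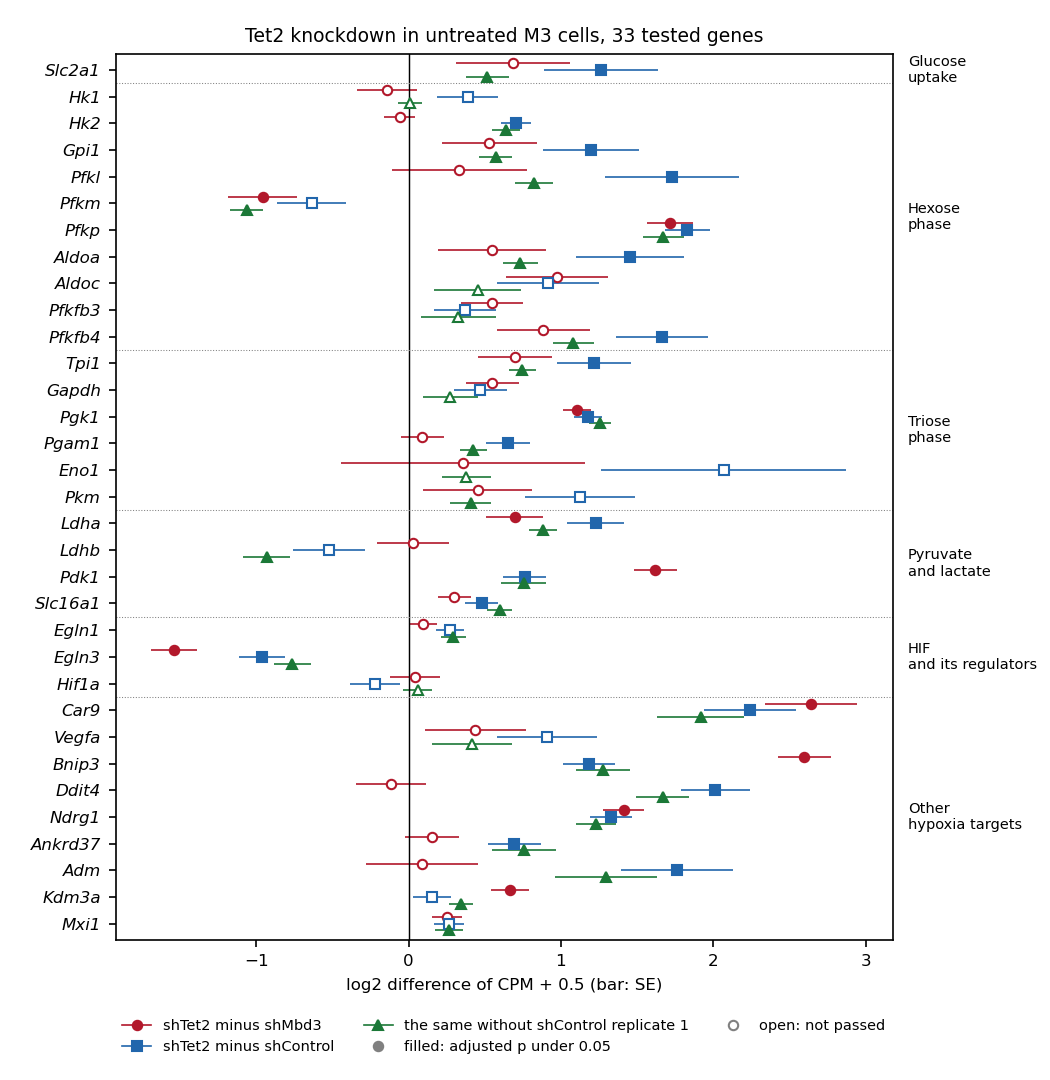
Log2 differences of CPM + 0.5 for the 33 tested members in untreated M3 cells, for shTet2 minus shMbd3, shTet2 minus shControl and shTet2 minus shControl without the library labelled shControl replicate 1, with standard errors as bars. Filled symbols passed an adjusted p under 0.05. Pgk1, Pfkp and Ndrg1 have nearly the same value in all 3 contrasts, while Slc2a1, Gpi1, Pfkl, Aldoa and Eno1 move toward 0 without that control library.

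In shMbd3 cells, 10 members passed against untreated shControl cells, 7 higher and 3 lower, where 32.1% of all tested genes passed (15.6% higher and 16.6% lower). The 10 were 30.3% of the tested members, near the share of all genes. Without the library labelled shControl replicate 1, 12 passed (8 and 4, with 34.3% of all genes passing, 17.2% and 17.1%), among them all 10, and the median log2 difference of the members was 0.02 in place of 0.47. After removal of the GC trend 20 passed. Bnip3 had 16.2 and 20.3 CPM in shMbd3 cells, against 48.2 and 46.0 CPM in shControl cells (-1.41, SE 0.17, adjusted p = 0.000473, and -1.32 without that library). Pdk1 had 28.1 and 31.0 CPM, against 49.4 and 54.1 CPM in shControl cells (-0.86, SE 0.14, adjusted p = 0.00244, and -0.86 without that library). Ddit4 had 167 and 199 CPM in shMbd3 cells, against 29.8 and 52.7 CPM in shControl cells (2.13, SE 0.23, and 1.78 without that library). Groups did not overlap for these 3 genes, which describes the values and is not a test. Bnip3 and Pdk1 thus differed from shControl in opposite directions in the 2 knockdowns, which share those control libraries, while Ddit4 was higher in both. Hk2 was also higher in both, with 93.0 and 85.9 CPM in shTet2 cells and 101 and 97.4 CPM in shMbd3 cells, against 51.2 and 60.9 CPM in shControl cells. Egln3 (0.58), Adm (1.67), Pfkl (1.39), Pgam1 (0.56) and Ankrd37 (0.54) rose and Kdm3a (-0.51) fell on the log2 scale. These last 6 were each lost without at least 1 library (adjusted p up to 0.199), so that 5 and 4 members passed without shMbd3 replicate 1 and replicate 2, and 21 without shControl replicate 2. Without the library labelled shControl replicate 1 the difference of Pfkl was 0.49, that of Pgam1 0.34, that of Egln3 0.78, that of Adm 1.21, that of Ankrd37 0.60, that of Hk2 0.70 and that of Kdm3a -0.32. In a fit of these 4 libraries alone 1 member passed. The summed epithelial markers were 2637 to 2727 CPM in shMbd3 cells, against 975 to 2493 CPM in shControl cells, and the mesenchymal ones 2815 to 3117 CPM, against 4392 to 6122 CPM in shControl cells. Their part in the result was not tested.

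CI994 was compared with no drug within each shRNA line. In shTet2 cells, Pdk1, Bnip3, Pgk1 and Kdm3a were among the members that fell with the drug. There 9 members passed, 1 higher and 8 lower, where 24.2% of all tested genes passed (12.4% higher and 11.8% lower), and 18 in a fit of the treated and untreated shTet2 libraries alone. The 9 were 27.3% of the tested members, near the 24.2% of all genes, though 8 of the 9 were lower. Pdk1 had 35.2 and 27.8 CPM with CI994, against 89.4 and 83.1 CPM without (-1.52, SE 0.14, adjusted p = 0.000265). Bnip3 had 43.4 and 43.9 CPM with CI994, against 111 and 100 CPM without (-1.33, SE 0.17, adjusted p = 0.00104). Pgk1 had 863 and 841 CPM with CI994, against 1282 and 1275 CPM without (-0.66, SE 0.09, adjusted p = 0.00158). In each case both treated libraries lay below both untreated ones. Kdm3a fell to 82.3 and 83.0 CPM with CI994, against 141 and 135 CPM without (-0.81). Ndrg1 (-0.70), Gapdh (-0.54), Mxi1 (-0.53) and Slc16a1 (-0.48) were lower and Pfkp (0.60) higher, and these 5 were lost without at least 1 library (adjusted p up to 0.200), with 5 members passing without shTet2 replicate 2 and 4 without replicate 1 of the treated group.

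In shMbd3 cells 4 members passed, 1 higher and 3 lower with CI994, where 12.6% of all tested genes passed (7.45% higher and 5.14% lower). The 4 were 12.1% of the tested members, near the share of all genes. With the GC trend removed 9 passed, and 15 in a fit of these 2 groups alone. Pfkp had 87.8 and 76.3 CPM with CI994, against 27.4 and 25.3 CPM without (1.61, SE 0.15, adjusted p = 0.000488). Pdk1 had 12.7 and 14.2 CPM with CI994, against 28.1 and 31.0 CPM without (-1.11, SE 0.14, adjusted p = 0.00166). Neither pair of groups overlapped. Bnip3 (-0.64) and Egln3 (-0.56) were lower and were lost without any 1 of the 4 libraries, where 2 members passed each time (adjusted p up to 0.244).

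In shControl cells 18 members passed, 15 higher and 3 lower with CI994, where 33.5% of all tested genes passed (18.0% higher and 15.5% lower), and 18 without the library labelled shControl replicate 1 (15 and 3, with 29.7% of all genes passing, 16.1% and 13.5%), of which 15 were shared. The median log2 difference of the members was 0.73, and 0.38 without that library. Pfkp had 157 and 146 CPM with CI994, against 20.0 and 27.2 CPM without (2.64, SE 0.15, adjusted p = 3.31e-05, and 2.48 without the library labelled shControl replicate 1). Car9 had 43.3 and 43.7 CPM with CI994, against 7.87 and 13.8 CPM without (1.98, SE 0.30, and 1.65 without that library). Hk1 had 249 and 262 CPM with CI994, against 86.1 and 158 CPM without (1.09, and 0.72 without that library). Treated libraries lay above both untreated ones for all 3 genes. Calls for Hk1, Hk2, Pfkp, Pgam1 and Car9 were kept without any 1 library. The other 13 were lost without at least 1 library (adjusted p up to 0.269), with 8 and 6 members passing without replicate 1 and replicate 2 of the treated group, and among them Pdk1, Pfkfb4 and Adm were lost without the library labelled shControl replicate 1. In the fit of those 4 libraries alone 1 member passed. Over the 3 lines, Pfkp rose with the drug in each, while Pfkl and Pfkm passed in none.

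Marker lists moved with the drug too. The summed level of 4 haematopoietic markers was 16.0 to 16.6 CPM in treated and 2.74 to 3.49 CPM in untreated shTet2 cells, 6.73 to 7.21 and 0.960 to 1.65 CPM in treated and untreated shMbd3 cells, and 6.93 to 6.99 and 1.33 to 2.25 CPM in treated and untreated shControl cells. Nearly all of it was Cd68, while Adgre1 was at 0 throughout and Cd3e and Ptprc stayed at or under 0.378 CPM. The summed mesenchymal markers, with Fn1 the largest of them, were 7792 to 8919 CPM in treated and 2949 to 3063 CPM in untreated shTet2 cells, 4165 to 4574 and 2815 to 3117 CPM in treated and untreated shMbd3 cells, and 8291 to 8731 and 4392 to 6122 CPM in treated and untreated shControl cells. Within this list, Fn1 and Vim were higher with the drug in each line, and Prrx1 and Twist1 were lower in each. Prrx1 had 50.7 and 61.5 CPM in treated shControl cells, against 234 and 168 CPM in untreated ones. Cdh2 and Zeb1 did not move the same way in every line. The epithelial sums were 4571 to 4574 and 3603 to 4076 CPM in shTet2, 3259 to 3351 and 2637 to 2727 CPM in shMbd3, and 3584 to 3589 and 975 to 2493 CPM in shControl cells, in each pair with the treated cells first. Their part in the differences of the members was not tested.

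**Figure D5:**
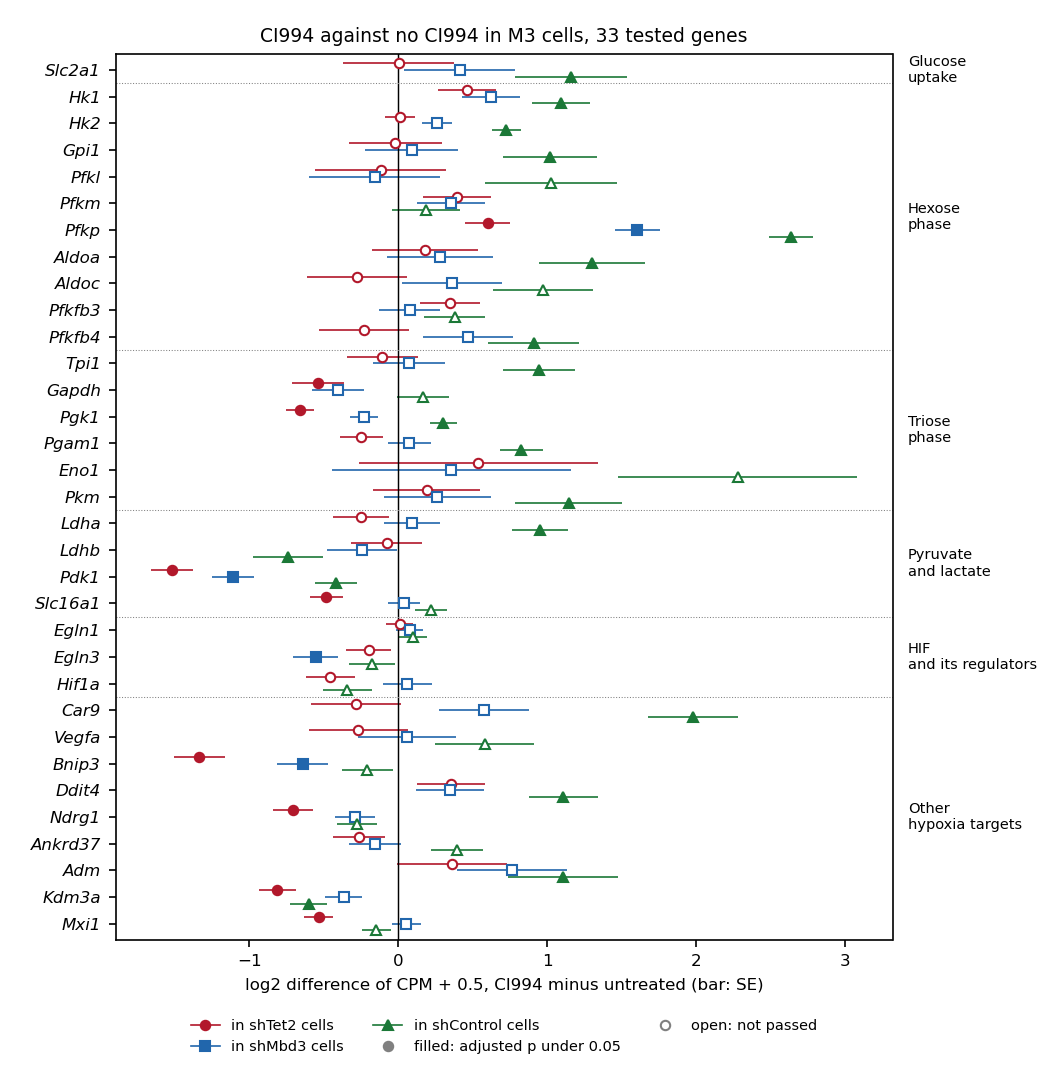
Log2 differences of CPM + 0.5 between CI994-treated and untreated cells in shTet2, shMbd3 and shControl lines for the 33 tested members, with standard errors as bars. Filled symbols passed an adjusted p under 0.05. Pfkp lies to the right and Pdk1 to the left in all 3 lines, and most glycolytic genes lie farther to the right in shControl cells than in the knockdown lines. The size of the shControl contrast depends on the library labelled shControl replicate 1, with a member median of 0.73 with it and 0.38 without it.

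Whether the drug's effect differed between lines was tested as an interaction. For shTet2 against shControl cells 3 members passed, all with a lower effect in shTet2 cells, where 0.687% of all tested genes passed. These were Pfkp (difference of effects -2.04, SE 0.21, adjusted p = 0.0111), Pgk1 (-0.96, SE 0.13, adjusted p = 0.0212) and Pdk1 (-1.10, SE 0.20, adjusted p = 0.047). For Pgk1 the drug effect was -0.66 in shTet2 cells and 0.30 in shControl cells. In this interaction 11 members passed after removal of the GC trend. Pfkp, Pgk1 and Pdk1 also passed, with differences of -1.88, -1.04 and -1.10, without the library labelled shControl replicate 1, where 12 members did (with 6.08% of all genes passing), Car9, Bnip3 and Ldha among them. None of the 3 was kept without every single library, since the calls were lost without most libraries of the other 3 groups (adjusted p up to 0.192), with 0 or 1 members passing, and 25 passed without shControl replicate 2. For shMbd3 against shControl cells 0 members passed by limma (10 had an unadjusted p under 0.05), where 0.0781% of all genes did, while edgeR on the recovered reads passed 0 and DESeq2 2, and 1 (Pgk1) without the library labelled shControl replicate 1, where 0.697% of all genes did. For shTet2 against shMbd3 cells 0 passed by limma (6 had an unadjusted p under 0.05), where 0.0312% of all genes did, with 0 by edgeR and 1 by DESeq2.

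Among CI994-treated cells, Pdk1, Bnip3, Car9, Pgk1 and Ndrg1 were higher and Egln3 lower in shTet2 than in shMbd3 cells. Between shTet2 and shMbd3 cells 10 members passed (30.3% of those tested), 7 higher and 3 lower in shTet2 cells, where 21.8% of all tested genes passed (11.0% higher and 10.8% lower). After removal of the GC trend 16 passed, and 23 in a fit of these 2 groups alone. Bnip3 had 43.4 and 43.9 CPM in treated shTet2 cells, against 10.6 and 12.5 CPM in treated shMbd3 cells (1.91, SE 0.17, adjusted p = 0.000141). Pdk1 had 35.2 and 27.8 CPM, against 12.7 and 14.2 CPM in treated shMbd3 cells (1.21, SE 0.14), and Car9 45.5 and 40.9 CPM, against 13.3 and 11.6 CPM in treated shMbd3 cells (1.78, SE 0.30). These groups did not overlap. Pgk1 (0.68), Ndrg1 (1.00) and Egln3 (-1.18) also passed, and these 6 were kept without any 1 library. Pfkm, Pfkp, Pfkfb3 and Mxi1 were lost without at least 1 (adjusted p up to 0.254), with 6 members passing without replicate 1 of treated shTet2 or replicate 2 of treated shMbd3 cells. Against treated shControl cells, 3 members passed in treated shTet2 cells, where 15.8% of all genes did (6.55% higher and 9.24% lower), with 7 after removal of the GC trend and 13 in a fit of the 2 groups alone. These 3 were 9.09% of the tested members, below the share of all genes. They were Ndrg1 (0.90) and Ddit4 (1.26), both higher, and Egln3 (-0.98), lower, and Ddit4 was lost without replicate 1 of the treated shControl cells (adjusted p = 0.0579). Treated shMbd3 cells had 8 (24.2% of the tested members), 2 higher and 6 lower, where 18.9% of all genes passed (7.99% higher and 10.9% lower), and 15 in a fit of the 2 groups alone. Among these, Bnip3 (-1.85), Car9 (-1.80), Pdk1 (-1.55) and Pfkp (-0.92) were lower and Ddit4 (1.37) was higher, and Gapdh, Pgk1 and Adm were lost without at least 1 library (adjusted p up to 0.240), with 5 members passing without replicate 1 of treated shControl or replicate 2 of treated shMbd3 cells. Both contrasts share the treated shControl libraries, in which Car9 had 43.3 and 43.7 CPM and Bnip3 35.4 and 49.0 CPM.

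Other genes of the pathway gave a mixed picture beside the members. In the clones against Py2T LT, of 41 other hypoxia targets 35 were tested, 10 higher and 17 lower (77.1% in all, where 65.1% of all genes passed), and the median log2 difference was -0.36, against -0.01 for all tested genes. Ak4 (mitochondrial adenylate kinase) and Vldlr (a lipoprotein receptor), both among the 10 higher, rose by 1.89 and 2.01, while most of the passing targets were lower. Between shTet2 and shMbd3 cells, 10 of 37 tested other targets were higher and 3 lower (35.1% in all, where 19.1% of all genes passed, median 0.36, against 0.00 for all tested genes), and Ak4 (60.7 against 7.79 CPM in shMbd3 cells) and Vldlr (13.3 against 1.01 CPM in shMbd3 cells) were higher by 2.98 and 3.28. Of 9 tested genes in a list of the HIF system and its regulators, 1 was higher and 2 were lower in shTet2 than in shMbd3 cells. The other 6 did not pass, and the median log2 difference of the list was -0.06. Epas1, which encodes the HIF-2 alpha subunit, averaged 6.42 CPM in shTet2 cells and 2.39 CPM in shMbd3 cells (log2 difference 1.34). Hif1an, the asparaginyl hydroxylase that inhibits HIF, averaged 91.3 CPM in shTet2 cells and 192 CPM in shMbd3 cells (-0.98). Of 29 genes of pyruvate entry and the citric acid cycle 4 were higher and 2 lower in shTet2 than in shMbd3 cells (20.7%), and of 24 respiratory chain genes the 2 that passed, Cox6c and Ppargc1a, were higher (8.33%), shares near and below the 19.1% of all genes. With CI994, Epas1 was higher by 1.58 in shTet2 and 1.34 in shMbd3 cells, and Eno3, the muscle enolase, by 0.83 and 1.36.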

How the data were processed

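RNA sequencing of total RNA, prepared with a stranded kit per the labels' protocols, was measured in 20 libraries, 10 groups of 2. The submitters' processing notes name STAR and the genome build mm10; the counting program, the use of strand and the treatment of reads with several matches are not given in the sources used here. For the 8 libraries of M1, M2, M3 and Py2T LT the authors deposited RPKM (reads per kilobase of gene, scaled to library size), a unit read from the values, with an unknown absolute depth and a relative depth of 0.865 to 1.06. For the 12 M3 shRNA libraries the authors deposited CPM (reads scaled to library size). Low CPM values stepped by a fixed amount in each library, which gave back whole reads for 100% of values (within 0.01 reads), with totals of 16086082 to 24977595. The limit of a count of 0 (3 reads) covers counting error only. Gene numbers were matched to RefSeq symbols for 19262 of 19311 and 24374 of 24454 genes.

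Groups came from the labels. The filter on low values kept genes that reached 1 RPKM (11717 genes) or 0.5 CPM (12808 genes) in at least 2 libraries of their table. Values were divided by TMM factors (edgeR 4.0.16), and log2(value + 0.5) was fitted with limma 3.58.1 in R 4.3.3 (group as the only term, mean trend, robust settings), in 1 fit for each table, with Benjamini-Hochberg adjustment over all tested genes and a threshold of 0.05. Differences are on the log2(value + 0.5) scale, which compresses those of genes near 0, and an interaction is the CI994 effect in one line minus that in another. Per the labels, cells came from independent experiments, and p-values measure the spread between them within a group. For the mean of the 3 clones, the spread between clones does not enter the p-values. Those p-values hold for these 3 clones and do not extend to other clones. The fit was tested on simulated data. Alternatives were other scalings, pseudocounts and filters, a replicate block, removal of the GC trend, fits of the compared groups alone, leaving out each library, and edgeR and DESeq2 1.42.0 on the recovered reads. The 36 members, the other gene lists and the markers were chosen with earlier results of these data known. All members could be named, and of the other lists the 3 genes with the largest passing differences in each direction.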

Additional observations from a re-analysis of the deposited data

Results flagged for a closer look

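The effect of CI994 on 3 members differed between shTet2 and shControl cells by a test of that difference (limma, adjusted over all tested genes). For Pfkp the log2 effect was 0.60 in shTet2 cells and 2.64 in shControl cells, a difference of -2.037 (SE 0.210, adjusted p = 0.0111). For Pgk1 the effects were -0.66 in shTet2 cells and 0.30 in shControl cells, a difference of -0.964 (SE 0.132, adjusted p = 0.0212). Pdk1 fell in both lines, by -1.52 in shTet2 cells and -0.42 in shControl cells, a difference of -1.104 (SE 0.199, adjusted p = 0.047). Each of the 3 lost its call when some single libraries other than those of untreated shControl were left out. Without the library labelled shControl replicate 1, whose GC trend stood apart from the other pairs, the differences were -1.88 for Pfkp, -1.04 for Pgk1 and -1.10 for Pdk1. Groups of 2 are too small for a test of single outlying values within a group.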

How the results depend on the processing

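With 2 libraries in a group, all groups of a table shared 1 estimate of the spread. Statements that groups of 2 did not overlap describe the values and are not tests. The share of all tested genes without overlap is not given beside them. When one library of a group was left out, the remaining one was assumed to vary like the other groups. None of the 221 calls on members changed sign under the alternatives run. Members that did not pass could, as Slc2a1 in shMbd3 against shControl, with 0.58 in all libraries and -0.17 without the library labelled shControl replicate 1. The counts of members that passed moved by over 1.5 times as follows. Between M1 and M3, 1 passed with no filter, with the replicate block, with the GC trend removed, with both, and with the compared groups alone, where 4 passed between M2 and M1. With the GC trend removed, 20 passed in shMbd3 against shControl, 19 in shTet2 against shMbd3, 9 with CI994 in shMbd3, 7 in treated shTet2 against treated shControl, 16 in treated shTet2 against treated shMbd3, and 11, 2 and 1 in the interactions of shTet2 with shControl, shMbd3 with shControl and shTet2 with shMbd3. With the GC trend removed and the replicate block these counts were 21, 21, 11, 8, 19, 17, 6 and 3, and 15 passed with CI994 in shTet2 and 15 in treated shMbd3 against treated shControl. With the compared groups alone, 6 passed in shTet2 against shControl, 1 in shMbd3 against shControl, 23 in shTet2 against shMbd3, 1, 18 and 15 with CI994 in shControl, shTet2 and shMbd3, 13 and 15 in treated shTet2 and treated shMbd3 against treated shControl, 23 in treated shTet2 against treated shMbd3, and 0 and 6 in the interactions of shTet2 with shControl and with shMbd3 (limma, with 3 and 0 in the fit of all groups). With no filter, 11 passed with CI994 in shControl and 2 in shMbd3. The interaction of shTet2 with shControl had 5 with a pseudocount of 1, 5 with the replicate block and 9 with DESeq2, which gave 2 and 1 in the other interactions. The causes were not tested. The share of all tested genes that passed is not given for these alternative fits. A change in such a count may therefore not be particular to the members. Same-numbered libraries deviated together over the CPM groups (correlations 0.223 to 0.523), except shControl with treated shTet2 (0.095), and not over the RPKM groups (-0.122 to 0.128). As the labels do not say what a replicate number marks and not every correlation passed 0.1, the numbers were not taken as pairs. The block kept 216 of 221 calls. Leaving out single libraries gave 19 to 24, 19 to 23, 17 to 21 and 22 to 29 members for M1, M2, M3 and their mean against Py2T LT, 3 to 10 for M2 against M1, 5 to 7 for M2 against M3 and 1 to 12 for M1 against M3. In the shRNA lines the ranges were 11 to 29 for shTet2 and 4 to 21 for shMbd3 against shControl, 7 to 9 between the knockdowns, 6 to 24, 4 to 8 and 2 to 2 with CI994 in shControl, shTet2 and shMbd3, 2 to 3, 5 to 7 and 6 to 7 for treated shTet2 and shMbd3 against treated shControl and against each other, and 0 to 25, 0 to 22 and 0 to 0 for the interactions. Depth limits what can be said of members near 0, and the absolute depth of the RPKM libraries is unknown.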
